A study of Mus musculus with 6 samples.

Results

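The genes described here were low only in the libraries that received 2APB together with TGF-β. Members were chosen by their CPM (counts per 1000000 counts of the library) in all 6 libraries. A gene was taken as a member when its higher value with TGF-β+2APB was at most 1/1.5 of the lowest value in the 4 libraries without 2APB, its mean with DMSO was at least 1 CPM, and the ratio of its mean with TGF-β to its mean with DMSO lay between 1/1.4 and 1.4. This rule selected 208 of the 18512 entries of the count table, and 11690 entries had a mean DMSO level of 1 CPM or more. Of these, 7633 also met the bound on the ratio, and the members made up 1.78% and 2.73% of the 2 sets. Because the rule used the values of all 6 libraries, the levels of the members are given as a description and were not tested.

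NMuMG cells, a line of mouse mammary gland epithelial cells, were given DMSO as the vehicle, TGF-β, or TGF-β together with 2APB. TGF-β was used at 5 ng/ml in both groups that had it, and 2APB at 50 uM. 2APB (2-aminoethoxydiphenyl borate) is a modulator of store-operated calcium entry, the influx that follows the emptying of calcium stores in the endoplasmic reticulum. All cells were serum-starved for 4 h beforehand, and RNA of 2 biological replicates per group was sequenced after oligo-dT selection. The study's results give 24 h of treatment, whereas its methods place 24 h of 2APB ahead of TGF-β, and the order was not settled here. No library received 2APB without TGF-β, so an effect of 2APB by itself and an effect that needs TGF-β cannot be told apart. In bulk RNA, fewer cells of a kind (for example, fewer cells in mitosis) and less RNA per cell cannot be told apart either.

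The line is known for its transition from an epithelial to a mesenchymal state under TGF-β, which also slows the division of many epithelial cells. Cells pass from DNA synthesis through G2 into mitosis, where CDK1 bound to a B-type cyclin starts the division, kinesin motors and kinetochores move the chromosomes, and the anaphase-promoting complex ends the phase by having the cyclins destroyed. The genes for these proteins are transcribed mainly in G2 and M. Many of their promoters hold CCAAT boxes, bound by NF-Y, and a cell cycle genes homology region (CHR), bound by the DREAM complex in resting cells and by B-MYB and FOXM1 complexes in dividing ones.

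The 6 libraries held 71840570 to 79473182 counts each, so that 1 CPM stood for 71.8 to 79.5 counts. Every deposited value was even. Epithelial genes were abundant (Cdh1 at 1209 and 1221 CPM in DMSO, Krt8 at 3350.04 and 3159 CPM), but Epcam stood at 1.69 and 2.20 CPM, and Esrp1 and Cldn7 stayed below 0.1 CPM in every library. The 8 hepatocyte markers summed to 998 and 921 CPM in DMSO and to between 1.21 and 10.6 CPM in the other libraries. Replicate 2 of TGF-β+2APB stood apart: the 8 immune cell markers found in the table summed to 414 CPM there, against 6.42 CPM in replicate 1 and 6.04 to 59.2 CPM in the 4 other libraries, of which Lyz2 made up 369 CPM, while the T cell gene Cd3e was at 0 in those 5 libraries. The 4 adipocyte markers found summed to 42.5 CPM in that library and to between 0.221 and 7.56 CPM elsewhere, but Lpl alone made up 41.2 CPM of it. Fabp4 was at 1.14 CPM there and Adipoq at 0. Cidec went the other way, from 1.90 and 2.20 CPM in DMSO to 0.102 CPM in that library, so the list does not show adipocytes. Fibroblast markers summed to 2.01 and 2.37 CPM in DMSO and to between 30.3 and 39.5 CPM in the other groups. Most of the latter was Col1a1 (21.0 to 27.4 CPM) and Pdgfrb (6.95 to 8.43 CPM). Col1a2, Col3a1, Dcn and Thy1 stayed at or below 0.167 CPM in every library, so the list does not show fibroblasts. Endothelial and myoepithelial markers summed to at most 5.53 CPM in any library. No member was on a marker list, and the part of these cells in the results was not tested.

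Together the 208 members took 15677 and 16038 CPM in the DMSO libraries, 15661 and 15942 CPM with TGF-β, and 4954 and 5911 CPM with TGF-β+2APB. Without Spp1, the most abundant member, the sums were 8363 and 8603 CPM, 7916 and 7637 CPM, and 3526 and 3919 CPM. The median member was at 16.2 and 16.8 CPM in DMSO, 14.9 and 15.5 CPM with TGF-β and 6.14 CPM in both replicates with TGF-β+2APB. The mean with 2APB was 5.65% to 60.6% of the mean of the 4 other libraries, with a median of 43.4%, which is a fold of 2.30. Most members were lower by a factor of 2 or more (152, or 73.1%), 42 by 3 or more and 16 by 4 or more. Just inside the threshold lay 9930014A18Rik, Pan2 and Bbs10, whose higher value with 2APB was 1.5041, 1.5048 and 1.512 times below the lowest value without it, and just outside lay Shc4, Pmf1 and Pgap1 at 1.4998, 1.4982 and 1.4969 times.

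**Figure D1:**
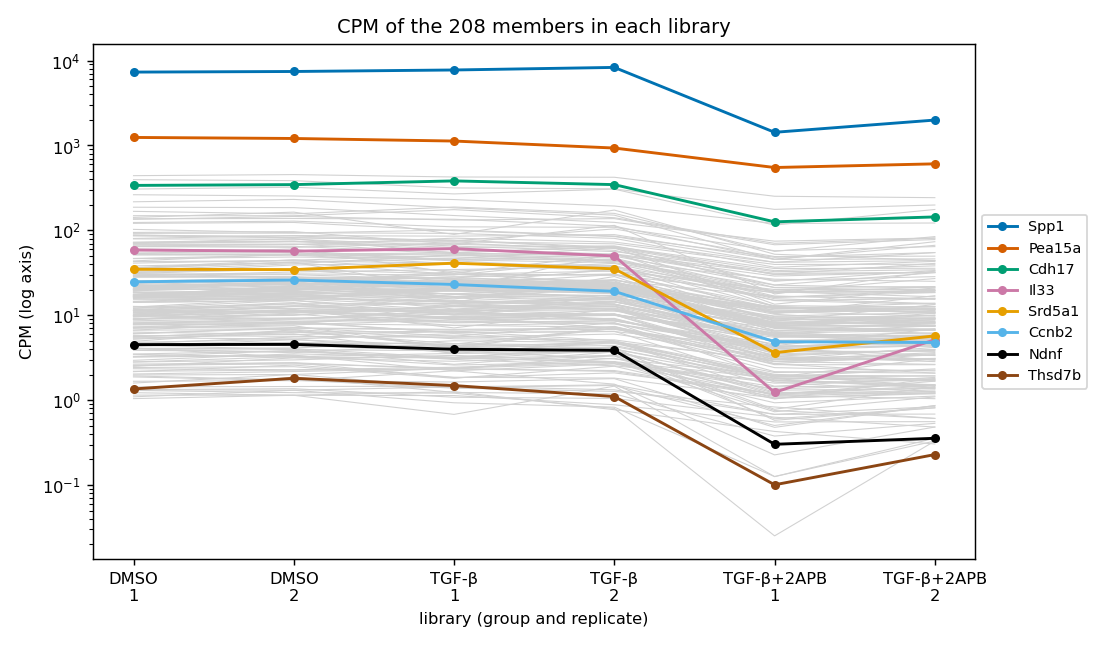
CPM of each of the 208 members in the 6 libraries on a log axis, with 1 line per member and 8 members in colour; lines join the values of a gene and carry no time order. By the rule, every member is lower in both libraries with 2APB than in the 4 without it. The rule also bounds the ratio of its TGF-β mean to its DMSO mean, while single libraries can differ. With TGF-β+2APB, replicate 2 of Il33 (5.15 CPM) lies above replicate 1 (1.23 CPM).

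In the edgeR quasi-likelihood fit of all 3 groups, 193 of the 208 members had a Benjamini-Hochberg false discovery rate (FDR) no higher than 0.05 with a lower level in TGF-β+2APB than in TGF-β, where 10.9% of the 13353 genes tested were called lower. Against DMSO, 207 members were called lower, where 27.2% of all genes tested were. These contrasts chose the members, so nothing is read from the counts. Between TGF-β and DMSO, whose ratio the rule bounded, 21 members were called, where 41.5% of all genes tested were called in either direction. The median log2 fold change of the members was -1.13 against TGF-β, -1.17 against DMSO and -0.06 for TGF-β against DMSO, beside medians of -0.0037, -0.0033 and -0.010 over all genes tested. Leaving out replicate 2 of TGF-β+2APB, the library with the immune markers, left 161 members called lower against TGF-β. Being lower in both libraries with 2APB than in all 4 others was common, at 29.0% of the entries with a mean DMSO level of 1 CPM or more. Of the 709 entries that met the level and the fold, 501 fell outside the bound on the TGF-β ratio and are not members.

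The 21 members with a call under TGF-β alone split into 13 that were lower and 8 that were higher than in DMSO. These calls depended on single libraries, with 0 members called without DMSO replicate 1 and 1 without DMSO replicate 2. Among the lower ones were Cdc20 (log2 fold change -0.36, SE 0.09), the kinesin gene Kif23 (-0.32, SE 0.10), the clock gene Per3 (-0.43, SE 0.13) and Fam107a (-0.43, SE 0.11). The higher ones were Tcf19 (0.52, SE 0.12), Melk (0.44, SE 0.13), Cit (0.43, SE 0.10), 2810417H13Rik (0.43, SE 0.12), Racgap1 (0.41, SE 0.12), Fanci (0.40, SE 0.12), Aurkb (0.39, SE 0.12) and Spag5 (0.39, SE 0.09). Members in cell division roles (described below) had a median TGF-β to DMSO ratio of 1.08, and the other members one of 0.889.

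The member with the largest drop was Il33, which encodes interleukin-33, a cytokine stored in the nucleus and released from damaged barrier cells. It was at 58.6 and 56.9 CPM in DMSO, 60.9 and 49.9 CPM with TGF-β and 1.23 and 5.15 CPM with TGF-β+2APB. In fold terms the 2 libraries with 2APB thus differed by more than any pair without it, but neither came near the level without the drug. Ndnf, which encodes a secreted neurotrophic factor, was at 4.51 and 4.54 CPM, 3.98 and 3.86 CPM, and 0.302 and 0.355 CPM in the same order, 12.8-fold lower on average. Srd5a1, the gene of a steroid 5α-reductase, was at 34.8 and 34.5 CPM, 41.0 and 35.2 CPM, and 3.62 and 5.71 CPM, a fold of 7.80. The replicates with 2APB lay close together for Ndnf and less so for Srd5a1, far below the other libraries in both.

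Lower-expressed genes with large folds included Thsd7b, which encodes a thrombospondin domain protein, at 1.36 and 1.81 CPM in DMSO, 1.48 and 1.10 CPM with TGF-β and 0.101 and 0.229 CPM with 2APB. Pif1, a DNA helicase gene, went from between 4.16 and 5.15 CPM to 0.579 and 0.812 CPM, and Abcb1b, which encodes the drug efflux pump P-glycoprotein, from between 3.10 and 3.84 CPM to 0.604 and 0.812 CPM. The RIKEN gene 1700026L06Rik rested on 2 counts in replicate 1 of TGF-β+2APB, or 0.0252 CPM with an exact Poisson 95% interval of 0.00305 to 0.0909 CPM for counting error alone (0.000637 to 0.14 CPM if the even values hold each read as 2 counts), and it was not called against TGF-β (log2 fold change -2.47, SE 0.91). Smarca1, the gene of an ISWI chromatin remodeler, and Nid1, the basement membrane protein nidogen-1, were both near 1 CPM. Smarca1 was not called either, at 0.679 and 1.46 CPM with TGF-β and 0.126 and 0.355 CPM with 2APB.

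The most abundant member was Spp1, the gene of the secreted phosphoprotein osteopontin, at 7314 and 7434 CPM in DMSO, 7744 and 8305 CPM with TGF-β and 1428 and 1991 CPM with TGF-β+2APB. Its fold was 4.50, and per kilobase of its longest transcript its DMSO level was 4893 CPM, beside a median of 5.17 over the members. Pea15a, which encodes a phosphoprotein that holds ERK in the cytoplasm, was at 1243 and 1208 CPM in DMSO, 1127 and 932 CPM with TGF-β, and 550 and 607 CPM with 2APB. Golm1, a Golgi membrane protein gene, was at 422 to 454 CPM without 2APB and at 252 and 243 CPM with it. The other abundant members by mean DMSO level were Plscr1 (phospholipid scramblase 1), Cdh17 (liver-intestine cadherin), Sorbs2, Tspan9, Hhex, Igsf8 and Dusp6, with folds of 1.87, 2.62, 2.06, 1.94, 3.30, 2.07 and 2.38. As a group the members were not highly expressed, with a median DMSO level of 16.7 CPM where that of all entries at 1 CPM or more was 35.3 CPM.

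**Figure D2:**
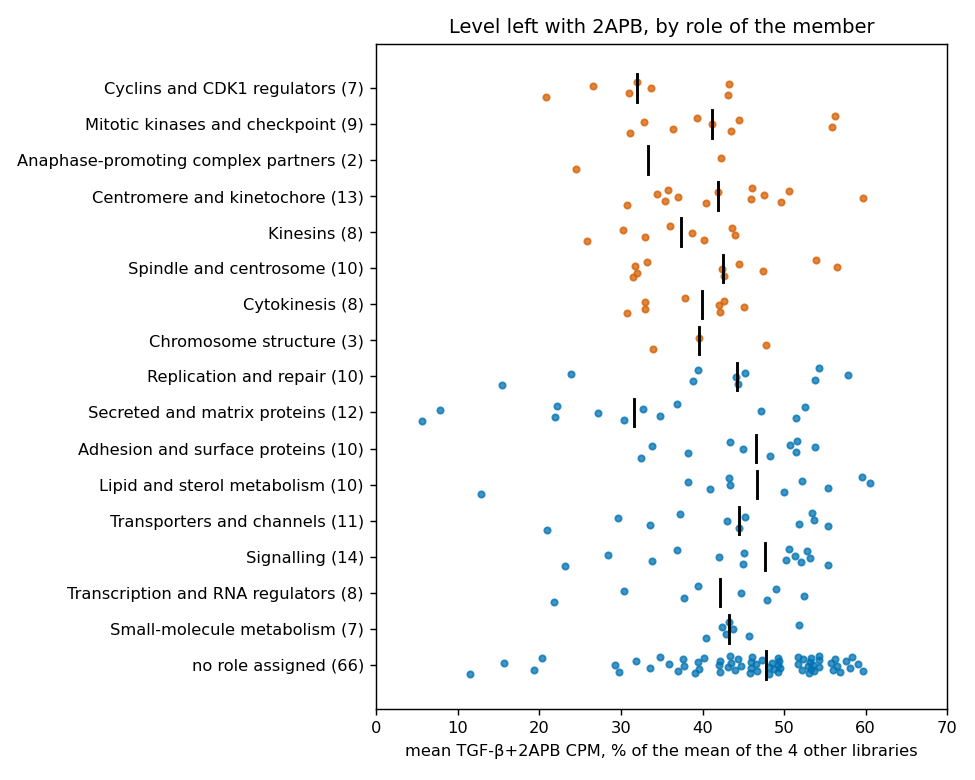
Mean TGF-β+2APB CPM of each member as a percentage of its mean in the 4 other libraries, by role, with the number of members in parentheses; each point is 1 member, the black line is the median, and orange marks roles in cell division. The cyclin and CDK1 regulator genes have a median of 32.0% and the secreted and matrix protein genes the widest range, from 5.65% to 52.6%.

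Roles were given to the members from general knowledge after the members were known, and 66 of the 208 have none. In all, 60 members (28.8%) were placed in roles of cell division. The other 148 members include all those without a role, such as Cdca3 and Sapcd2, so they may hold further genes of cell division. Entries that are not members were given no role, so no share over all entries can be set beside this one. The level of the 60 members with 2APB had a median of 39.9% of the other libraries, and that of the other 148 members 45.1%. The largest such role was the centromere and kinetochore with 13 genes.

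Ccnb2 and Ccnb1, the B-type cyclin partners of CDK1, and the phosphatase genes Cdc25b and Cdc25c, whose products switch CDK1 on, were all members. Ccnb2 was at 24.8 and 26.0 CPM in DMSO, 23.03 and 19.1 CPM with TGF-β and 4.88 and 4.77 CPM with TGF-β+2APB. Ccnb1 was at 31.6 and 39.1 CPM, 40.9 and 38.5 CPM, and 12.7 and 11.4 CPM in these groups. Cdc25b was at 10.1 to 12.9 CPM without 2APB and at 2.69 and 3.43 CPM with it. The groups with and without 2APB were well apart in each gene, and the DMSO and TGF-β libraries overlapped for Cdc25b. Ccna2 (fold 2.97), Cdc25c (3.23), Ccnf (2.32) and Pkmyt1, the gene of a kinase that holds CDK1 inactive (2.31), completed the group, so that genes of activators and of an inhibitor of CDK1 were lower together.

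Genes of the anaphase-promoting complex's partners followed. Cdc20, which activates the complex, was at 23.6 and 21.7 CPM in DMSO, 17.7 and 17.0 CPM with TGF-β and 4.88 and 4.90 CPM with TGF-β+2APB. Ube2c, its ubiquitin-conjugating enzyme, was at 16.9 and 22.4 CPM, 24.3 and 23.3 CPM, and 10.3 and 8.07 CPM. Cdc20 was thus stepwise lower over the 3 groups, while Ube2c was lower in no group but TGF-β+2APB. Among the mitotic kinases, Nek2 (fold 3.22), Plk1 (3.04), Melk (2.75), Aurkb (2.54) and Aurka (1.79) were members, as were the spindle checkpoint genes Ttk, Bub1, Bub1b and Mad2l1 with folds from 1.78 to 2.43. Plk1, the polo-like kinase that drives mitotic entry, was at 22.96 and 25.7 CPM, 28.1 and 22.6 CPM, and 8.23 and 8.10 CPM.

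At the kinetochore, where microtubules attach to the chromosome, the members included 3 genes of the NDC80 complex, Ndc80 (fold 2.70), Spc24 (2.10) and Spc25 (2.83), and the centromere genes Cenpa, Cenpf and Cenpi. The passenger complex was represented by Birc5 (2.80), Cdca8 (1.98) and the kinase gene Aurkb. Cenpf was at 35.9 and 42.0 CPM in DMSO, 20.1 and 53.7 CPM with TGF-β and 12.7 and 10.7 CPM with 2APB. The wide gap between its TGF-β replicates stood beside an SE of 0.43 on the log2 scale, and it was not called against TGF-β (log2 fold change -1.62). The kinesin genes Kif14 (fold 3.87), Kif23 (3.30), Kif20a (3.04), Kif11 (2.77), Kif2c (2.59), Kif4 (2.49), Kif22 (2.29) and Kifc1 (2.27) were members. By symbol, 7 of the 27 kinesin family entries at 1 CPM or more were members, a count that leaves out Kifc1.

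Genes of cytokinesis, in which the contractile ring divides the cell, included the guanine nucleotide exchange factor gene Ect2 (33.0 to 45.1 CPM without 2APB, 15.7 and 13.7 CPM with it) and the centralspindlin partners Racgap1 and Kif23. Kif23 was at 71.8 and 79.4 CPM in DMSO, 54.2 and 64.3 CPM with TGF-β and 21.1 and 19.7 CPM with TGF-β+2APB. Cit, Cep55, Iqgap3, Shcbp1, Depdc1b and the GTPase-activating protein gene Arhgap19 had folds from 2.35 to 3.25. The proliferation marker Mki67 was the most abundant member in these roles, at 142 and 164 CPM in DMSO, 89.6 and 173 CPM with TGF-β and 52.3 and 44.1 CPM with 2APB. As with Cenpf, replicate 1 of TGF-β lay well below replicate 2.

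The replicates also differed in ways shared by many members. DMSO replicate 2 was higher than replicate 1 in 57 of the 60 members in cell division roles, by a median of 0.22 on the log2 scale, whereas it was higher in 54.0% of all entries at 1 CPM or more, with a median of 0.0077. This shift was small beside the drop with 2APB. In TGF-β+2APB, replicate 2, the library with the immune markers, was the higher one in 112 of the 148 other members (75.7%, median 0.15) and in 35% of the members in cell division roles, where it was in 54.6% of all entries. The log2 ratio of the TGF-β replicates (2 over 1) went with transcript length, with a Spearman correlation of 0.28 over 11594 entries, 0.242 over 206 members and 0.32 over the 60 in cell division roles. For the DMSO replicates it was 0.20 over all these entries and 0.205 over the members, and for the TGF-β+2APB replicates -0.155 and -0.076. These correlations are across genes of the same libraries and are given as a description.

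A list of 48 mitosis and G2/M genes and a list of 53 DNA replication and G1/S genes from general knowledge were set beside the members. Among all entries at 1 CPM or more, 1.78% were members and 29.0% were below all 4 other libraries in both libraries with 2APB. Of the mitosis list, 29 of 48 entries (60.4%) were members, and 39 were below all 4 other libraries in both libraries with 2APB. Of the replication list, none of the 52 entries at 1 CPM or more was a member and 12 were below all others. Only 20 of these 52 met the bound on the TGF-β to DMSO ratio, against 39 of the 48 mitosis entries. The rule thus kept most of the replication list out beforehand, and nothing is read from its lack of members. With TGF-β+2APB against TGF-β, 37 of the 48 mitosis entries were called lower and none higher, with a median log2 fold change of -1.24, whereas 19 of 53 replication entries were called lower and none higher, with a median of -0.32, beside 10.9% called lower and a median of -0.0037 over all genes tested. With TGF-β against DMSO, 40 of the 53 replication entries were called higher (median 0.65) and 12 of the 48 mitosis entries higher and 2 lower (median 0.14), where 21.8% of all genes tested were called higher and 19.7% lower, so that the mitosis share of higher calls was near that of all genes. The difference between the lists was not tested.

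**Figure D3:**
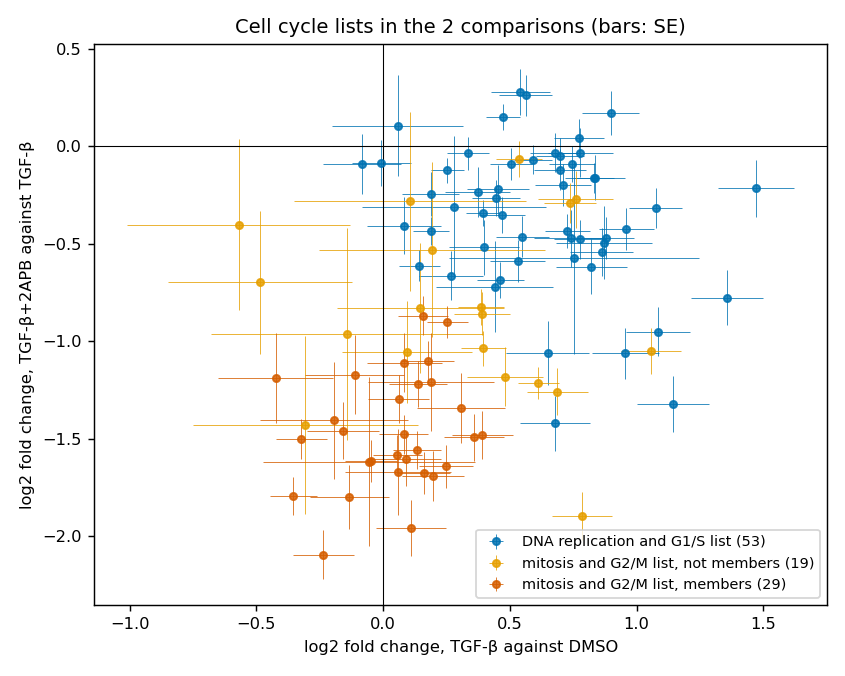
Log2 fold change of TGF-β+2APB against TGF-β (vertical) plotted on that of TGF-β against DMSO (horizontal) for the 53 replication entries, the 29 mitosis members and the 19 other mitosis entries, with bars of 1 SE; both axes use the TGF-β libraries, so an error there moves a point on both. The replication entries lie mostly right of 0 with a median of -0.32 on the vertical axis. The mitosis members lie at -0.87 (Aurka) or below, which the rule largely fixed.

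Of the 19 mitosis entries that are not members, 10 missed only the fold, 1 missed only the ratio bound and 8 missed both. The one outside the ratio bound alone was Anln, the gene of the ring protein anillin, at 47.0 and 56.04 CPM in DMSO, 78.7 and 95.6 CPM with TGF-β and 22.2 and 23.5 CPM with 2APB. Foxm1, which encodes a transcription factor of the G2/M genes, was at 34.0 and 41.2 CPM, 62.7 and 55.7 CPM, and 24.8 and 23.5 CPM, and missed both conditions. Both genes were called higher with TGF-β than with DMSO and lower with TGF-β+2APB than with DMSO. For 6 of the 10 entries that missed only the fold, the lowest library without 2APB was replicate 1 of TGF-β. The clearest was Cenpe at 33.1 and 37.6 CPM in DMSO, 15.1 and 41.3 CPM with TGF-β and 11.9 and 8.45 CPM with 2APB. Without that library the rule selected 314 genes, 184 of the 208 among them, and 33 of the 48 mitosis entries.

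Bub3, Espl1 and Cks2 of the mitosis list differed from the rest. Bub3, a checkpoint gene, was at 68.985 and 70.9 CPM in DMSO, 105 and 93.3 CPM with TGF-β and 91.6 and 93.8 CPM with 2APB. Espl1, the gene of separase, was at 15.3 and 19.4 CPM, 30.9 and 26.6 CPM, and 24.4 and 22.03 CPM. Both were higher than DMSO in every treated library. In the replication list, Tk1 (thymidine kinase) came closest to the members, at 26.3 and 28.6 CPM in DMSO, 48.0 and 37.8 CPM with TGF-β and 15.001 and 16.4 CPM with 2APB, and Mcm6, a subunit of the replicative helicase, was at 134 and 146 CPM, 273 and 237 CPM, and 295 and 266 CPM.

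Promoters were then read for the members that have one in the RefSeq table of GRCm38.p6, each running from 250 bases before to 50 bases after a transcription start. Of the 208 members, 158 were matched to 190 promoters, since some genes have several starts. The searches covered both strands for the CCAAT box (CCAAT) and the CHR (TTTGAA or TTCGAA). The promoters shown belong to 4 of the 5 most lowered mitosis genes with an entry and to Plk1, a regulator of mitotic entry, since these carry both elements close to the start, and Il33 is shown as the most lowered member outside cell division. Capitals mark matches to the CCAAT box (ATTGG on the other strand) and to the CHR (TTCAAA on the other strand).
Ccnb2 (GRCm38.p6, chr9:70421505-70421804, minus strand): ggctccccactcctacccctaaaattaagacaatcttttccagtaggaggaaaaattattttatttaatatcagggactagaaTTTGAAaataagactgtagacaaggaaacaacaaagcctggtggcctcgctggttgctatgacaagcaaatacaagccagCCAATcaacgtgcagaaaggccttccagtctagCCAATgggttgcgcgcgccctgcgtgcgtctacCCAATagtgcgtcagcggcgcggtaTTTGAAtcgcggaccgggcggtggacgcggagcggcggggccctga
Cdc20 (GRCm38.p6, chr4:118437294-118437593, minus strand): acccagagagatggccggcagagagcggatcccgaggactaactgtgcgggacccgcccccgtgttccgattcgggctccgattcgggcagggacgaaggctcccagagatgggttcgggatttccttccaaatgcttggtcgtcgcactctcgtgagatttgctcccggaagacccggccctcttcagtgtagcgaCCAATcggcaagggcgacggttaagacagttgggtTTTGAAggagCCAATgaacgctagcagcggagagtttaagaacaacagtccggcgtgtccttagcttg
Cdc25b (GRCm38.p6, chr2:131186698-131186997, plus strand): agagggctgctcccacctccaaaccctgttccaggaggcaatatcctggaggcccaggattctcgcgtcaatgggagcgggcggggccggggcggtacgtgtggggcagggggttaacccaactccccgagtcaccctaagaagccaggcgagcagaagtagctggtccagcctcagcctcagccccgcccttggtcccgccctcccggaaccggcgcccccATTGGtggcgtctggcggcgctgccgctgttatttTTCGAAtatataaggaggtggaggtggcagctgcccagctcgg
Kif23 (GRCm38.p6, chr9:61946750-61947049, minus strand): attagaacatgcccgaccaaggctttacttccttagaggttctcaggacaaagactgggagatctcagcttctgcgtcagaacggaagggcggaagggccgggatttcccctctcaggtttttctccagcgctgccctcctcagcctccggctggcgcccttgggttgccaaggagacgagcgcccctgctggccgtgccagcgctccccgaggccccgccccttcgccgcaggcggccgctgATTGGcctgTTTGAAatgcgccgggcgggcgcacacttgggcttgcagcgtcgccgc
Plk1 (GRCm38.p6, chr7:122159185-122159484, plus strand): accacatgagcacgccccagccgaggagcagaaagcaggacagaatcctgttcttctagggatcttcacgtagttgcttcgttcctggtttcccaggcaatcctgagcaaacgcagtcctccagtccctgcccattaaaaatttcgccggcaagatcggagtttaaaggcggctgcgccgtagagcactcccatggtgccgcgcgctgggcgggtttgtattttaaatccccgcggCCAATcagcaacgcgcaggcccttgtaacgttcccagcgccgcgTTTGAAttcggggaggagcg
Il33 (GRCm38.p6, chr19:29924863-29925162, plus strand): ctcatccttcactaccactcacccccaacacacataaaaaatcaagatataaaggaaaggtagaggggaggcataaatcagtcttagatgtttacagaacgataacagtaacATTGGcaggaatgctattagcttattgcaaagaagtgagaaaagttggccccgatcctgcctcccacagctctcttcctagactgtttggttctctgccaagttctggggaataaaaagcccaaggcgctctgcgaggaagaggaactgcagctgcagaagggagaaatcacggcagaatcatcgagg

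In the Ccnb2 promoter 3 CCAAT boxes began 87, 54 and 21 bases before the start (offsets of -87, -54 and -21) and a CHR began at offset 4, with a further CHR at -167. The Cdc20 promoter held CCAAT boxes at -53 and -8 and a CHR at -18. A CCAAT box stood at -28 and a CHR at 7 in Cdc25b, at -7 and 2 in Kif23 and at -14 and 30 in Plk1. In each of these promoters a CHR lay downstream of a CCAAT box and close to the start. They were chosen for having both elements there, so nothing is read from this about the other members. Kif14, also among the 5 most lowered, had its CCAAT box at -92 and its CHR further upstream at -228. The upstream Il33 promoter held a CCAAT box at -138 and no CHR, and the further Il33 start in the table had neither.

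Over the 24 mitosis list members with a promoter, 75% held a CHR, 79.2% a CCAAT box and 70.8% both. Of the 11915 promoters of entries at 1 CPM or more, 13.8% held a CHR, 37.9% a CCAAT box and 5.75% both, and of all 32851 promoters of the reference 19.2%, 37.4% and 7.52% did. The members in cell division roles (52 promoters) had a CHR in 71.2%, and the other members (138 promoters) in 15.9%, close to the share among expressed entries. Mitosis list entries that are not members had a CHR in 72.2% of 18 promoters, close to the share of the list's members. The DNA replication and G1/S list had a CHR in 18.2% of 55 promoters. No entry was matched for Ccna2, Cdc25c, Kif20a, Dlgap5 and Aurkb.

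**Figure D4:**
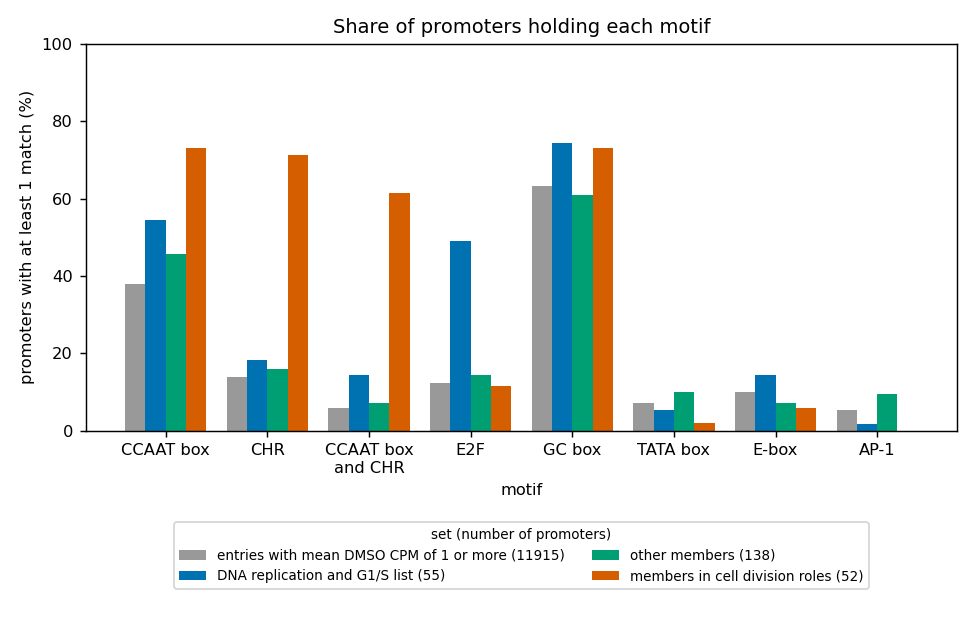
Percentage of promoters with at least 1 match to each motif, for entries at 1 CPM or more, the DNA replication and G1/S list, the members in cell division roles and the other members. The CHR bar of the members in cell division roles reaches 71.2% against 13.8% of expressed entries, and the E2F bar is tallest for the replication list at 49.1%.

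Motifs of other factors were searched in the same windows. An E2F motif (TTCCCGC or TTGGCGC) was found in 11.5% of the promoters of members in cell division roles, 14.5% of those of other members and 12.3% of those of expressed entries, but in 49.1% of those of the replication list. A GC box (GGGCGG) was held by 73.1%, 60.9%, 63.2% and 74.5% of these sets. The AP-1 motif (TGANTCA) was in 0 of the 52 promoters of members in cell division roles, 9.42% of those of other members and 5.29% of those of expressed entries. The TATA box (TATAAA) was in 1.92%, 10.1% and 7.09%, and the E-box (CACGTG) in 5.77%, 7.25% and 9.91% of these 3 sets. Of these, the GC box was the one that the members in cell division roles held more often than expressed entries. A match says only that the letters are present in the window.

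**Figure D5:**
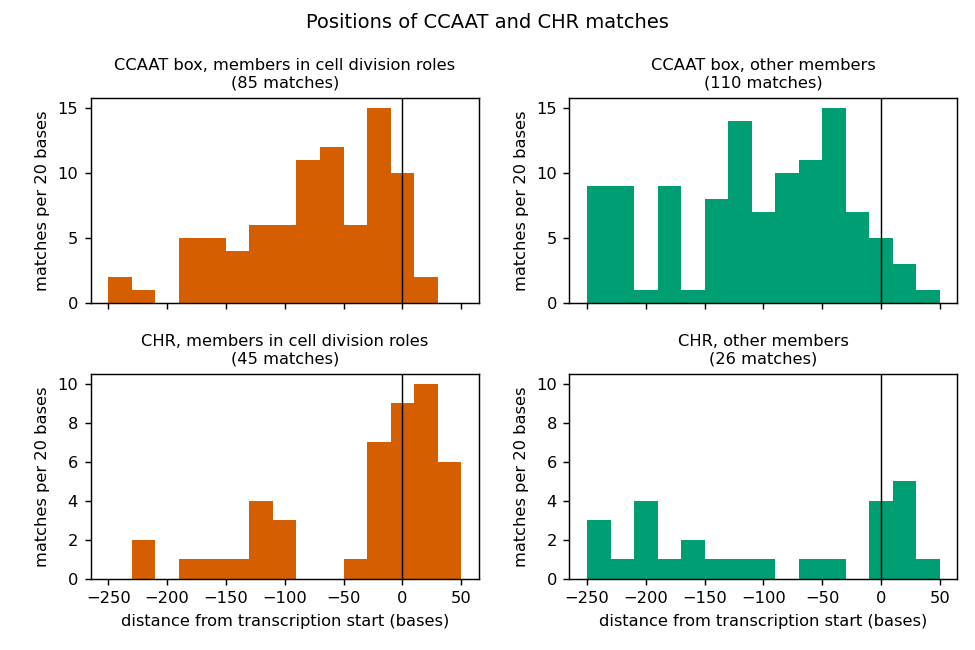
Positions of CCAAT box (top) and CHR (bottom) matches relative to the transcription start, in bins of 20 bases, for members in cell division roles (left) and other members (right). In the division roles 33 of 45 CHR matches lie within 50 bases of the start, and in the other members 11 of 26 do.

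In the members in cell division roles, 33 of 45 CHR matches began within 50 bases of the start, with a median offset of 2, and 54 of 85 CCAAT matches began in the 100 bases before it. In the other members, 11 of 26 CHR matches lay within 50 bases, with a median offset of -117.5, and 51 of 110 CCAAT matches in the 100 bases before the start. The closest lists were placed alike in part, as the mitosis entries that are not members had 14 of 21 CHR and 16 of 28 CCAAT matches in these windows, and the replication list 4 of 12 and 33 of 58.

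Genes of DNA replication and repair, grouped after the members were known, made up 10 members outside the mitosis list. Of a separate list of DNA repair and damage response genes, 2 of 55 entries at 1 CPM or more (3.64%) were members, Fanci and Rad51c. Members were 1.78% of all entries at that level, so nothing is read from this count. Pif1 and Ankle1, which encodes an endonuclease, had the largest folds of 6.49 and 4.19. Fanci, a gene of the Fanconi anemia pathway for crosslink repair, was at 9.10 and 10.1 CPM in DMSO, 12.8 and 11.97 CPM with TGF-β and 4.03 and 4.49 CPM with 2APB. Gen1 (a resolvase of recombination junctions), Neil3 (a DNA glycosylase), Parpbp, 2810417H13Rik, Zranb3, Rad51c and Msh5 had folds from 1.73 to 2.53.

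Secreted and matrix proteins made up 12 members and included those with the largest folds, Il33 and Ndnf. Sema3c, a secreted guidance cue, was at 94.5 and 96.6 CPM in DMSO, 69.03 and 114 CPM with TGF-β and 17.8 and 33.1 CPM with 2APB. Mmp13, a collagenase gene, was at 18.6 and 15.7 CPM, 14.8 and 13.6 CPM, and 4.91 and 5.36 CPM. The replicates of Sema3c were wide apart in both treated groups, and those of Mmp13 were not. Crp, the gene of C-reactive protein, a plasma protein made by liver cells, was at 51.5 and 51.2 CPM in DMSO, 40.5 and 37.4 CPM with TGF-β and 10.4 and 17.0 CPM with 2APB. The cytokine gene Il18 (fold 2.71), Bmp4 (2.12), Pla1a (1.90), and the protease inhibitor gene Serpine2 (2.88) were further members. Of the 15 basement membrane entries at 1 CPM or more, Nid1 and Lama1, which encodes a laminin chain, were members, and Serpine2 and Lama1 were not called against TGF-β (log2 fold changes -1.44, SE 0.38, and -0.69, SE 0.20).

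Adhesion and surface proteins made up 10 members. Cdh17, a cadherin of liver and intestine, was at 338 and 346 CPM in DMSO, 382 and 346 CPM with TGF-β and 126 and 144 CPM with TGF-β+2APB. Tspan9 (a tetraspanin) was at 263 and 254 CPM, 231 and 194 CPM, and 121 and 122 CPM, and Igsf8 at 187 and 185 CPM, 150 and 124 CPM, and 74.6 and 81.4 CPM. For Igsf8 the TGF-β level was also called lower than DMSO, and for Cdh17 and Tspan9 it was not. Itga9, an integrin α chain gene, was the only member among 31 integrin and focal adhesion entries at 1 CPM or more, at 1.19 to 1.87 CPM without 2APB and 0.378 and 0.533 CPM with it.

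Lipid and sterol metabolism was represented by 10 members, among them 4 of the 39 entries at 1 CPM or more on the list of cholesterol synthesis and SREBP targets. Acat2, for acetoacetyl-CoA synthesis, was at 22.4 to 30.8 CPM without 2APB and at 11.02 and 12.007 CPM with it, and Sqle, the gene of squalene epoxidase, at 67.3 to 80.9 CPM and at 42.0 and 44.1 CPM. The fatty acid elongase gene Elovl6 had a fold of 1.91. Of the entries that are not members, Acss2, Srebf1, Scd2 and Scd1 were at 22.9%, 34.4%, 41.3% and 42.1% of the mean of the libraries without 2APB, and all 4 lay outside the ratio bound, with TGF-β well below DMSO. Over the list, 19 of the 40 entries tested were called lower with TGF-β+2APB than with TGF-β and none higher, with a median log2 fold change of -0.47, beside 10.9% called lower over all genes. Of the other entries at 1 CPM or more, 23 missed only the fold, such as Hmgcs1 at 189 and 177 CPM, 152 and 189 CPM, and 116 and 117 CPM.

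Transporters and channels gave 11 members. Tpcn1, the gene of a two-pore channel of endosomes and lysosomes, was at 121 and 124 CPM in DMSO, 99.2 and 84.6 CPM with TGF-β and 42.0 and 54.8 CPM with 2APB. Cacna1h, which encodes a T-type voltage-gated calcium channel, was at 124 and 128 CPM, 110 and 109 CPM, and 57.6 and 64.4 CPM. In both genes the TGF-β libraries lay between the DMSO libraries and those with 2APB. Scn2a1, a sodium channel gene, was at 2.64 to 4.07 CPM without 2APB and at 1.31 and 1.37 CPM with it. The solute carrier genes Slc16a6 (fold 3.38), Slc6a19 (2.98), Slc7a3 (2.25) and Slc9a8 (1.81) belonged here, and by symbol 5 of 205 solute carrier entries at 1 CPM or more were members, counting Slc2a4rg-ps, a pseudogene that is not a carrier.

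The lists nearest to the drug's known targets held no member, where members made up 1.78% of all entries at 1 CPM or more, so lists of this size would hold few or none at that share. Store-operated entry and IP3 receptors had 0 of 16 entries at 1 CPM or more, TRP channels 0 of 8, calcium pumps and mitochondrial uptake 0 of 15, calcineurin, NFAT and calmodulin kinases 0 of 25 and connexins 0 of 7. Orai1 was at 25.045 and 23.9 CPM in DMSO, 28.2 and 22.7 CPM with TGF-β and 20.2 and 23.9 CPM with 2APB. Stim1 was at 60.4 and 60.1 CPM, 65.3 and 57.6 CPM, and 42.7 and 46.9 CPM, a log2 fold change of -0.42 (SE 0.10) against TGF-β that was called lower by edgeR. The Orai1 values overlapped between the groups, and Stim1 had the same direction as the members but missed the fold. Of the 17 tested entries of the list of store-operated entry and IP3 receptors, 3 were called lower than with TGF-β and 2 higher. The lower ones were Stim1, Stim2 (-0.36 on the log2 scale) and Itpr2 (-0.31), and the higher ones Itpr1 (0.73) and Itpripl2 (0.35). Over all genes tested 10.9% were called lower and 6.58% higher, so nothing is read from these counts. Plch1, a phospholipase C gene, was the only member among 20 entries of phospholipases C, protein kinases C and diacylglycerol kinases, at 62.8 to 74.9 CPM without 2APB and 30.1 and 32.0 CPM with it.

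Signalling genes made up 14 members. Dusp6, the gene of a phosphatase that inactivates ERK, was at 167 and 157 CPM in DMSO, 188 and 158 CPM with TGF-β and 56.6 and 84.4 CPM with TGF-β+2APB. Spry1, an inhibitor of receptor tyrosine kinase signalling, was at 18.6 and 17.6 CPM, 19.3 and 16.2 CPM, and 8.76 and 9.24 CPM. These 2 were the only members among 29 entries of MAP kinase feedback at 1 CPM or more, in which 10 of 30 tested entries were called lower and 5 higher against TGF-β, where 10.9% and 6.58% of all genes tested were. Others of that list went the opposite way, such as Dusp4 at 84.7 and 82.3 CPM, 146 and 141 CPM, and 279 and 254 CPM, and the direction was not shared by the list. The kinase subunit gene Prkar2b (fold 2.96), the purinergic receptor gene P2ry2 (2.71), Map2k6 (2.22), the G protein gene Gnai1 (1.92) and Socs5 (1.81) were further members.

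Transcription and RNA regulators made up 8 members. Hhex, a homeobox gene of early liver and thyroid, was at 217 and 231 CPM in DMSO, 184 and 151 CPM with TGF-β and 45.4 and 73.5 CPM with 2APB. Per3 was at 24.7 and 26.1 CPM, 16.3 and 20.7 CPM, and 8.05 and 9.27 CPM, and Cirbp, a cold-inducible RNA-binding protein gene, at 79.3 and 78.8 CPM, 65.4 and 56.2 CPM, and 32.6 and 34.3 CPM. These 3 were lower with TGF-β than with DMSO in both replicates and lower again with 2APB, as the bound on the ratio allows, whereas Tcf19 of the same role was called higher with TGF-β (0.52) and Nanos1 (0.19, SE 0.16) and Eya2 (0.14, SE 0.14) were not called. Small-molecule metabolism added 7 members, with Pck2 (fold 2.29), Pdxk (2.36), Mmab (2.33), Car2 (2.31) and Upp1 (1.93) among them, and Pdk3 and Oaz3 were not called against TGF-β.

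Among the 66 members with no role assigned, the folds ran from 1.67 for Cchcr1 to 8.74 for Thsd7b. Transmembrane genes named Tmem accounted for 10 of 161 entries at 1 CPM or more, led by Tmem252 (1.54 to 2.21 CPM without 2APB, 0.227 and 0.482 CPM with it), Tmem51 (fold 3.36) and Tmem158 (2.78). Sapcd2 was at 7.27 and 8.44 CPM in DMSO, 6.19 and 6.48 CPM with TGF-β and 1.64 and 1.24 CPM with 2APB, and Sorbs2 at 306 and 322 CPM, 269 and 306 CPM, and 115 and 176 CPM. Of 53 gene lists compared, 24 had at least 1 member and 29 had none, among them epithelial identity, the respiratory chain and both cytosolic ribosomal proteins (0 of 75) and ribosome biogenesis (0 of 61). Members were 1.78% of all entries at 1 CPM or more, so nothing is read from a list without one.

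Members were spread over the genome, from 0.929% of the entries at 1 CPM or more on chromosome 8 to 2.61% on chromosome 18. Protein-coding genes made up 199 of the 208 (95.7%). The median longest transcript was 3182 bases, where that of all entries at 1 CPM or more was 3430 bases, with a GC content of 48.9% and 49.5%. Within 50000 bases of each other lay 7 pairs of members, among them Kif11 and Hhex on chromosome 19 (12978 bases apart). Pilra and Pilrb1, a pair of related immune receptor genes on chromosome 5, were 15863 bases apart. Tcf19 and Cchcr1 lay 212 bases apart on chromosome 17, and Elovl7 and Depdc1b 28905 bases apart on chromosome 13. Oip5 and Nusap1 overlapped over a small part of their spans, and Mir6386 lay inside Plscr1. Reads inside such an overlap cannot be told apart by gene where the counting ignored strand, which is not stated. The spans of 44 members, Cdc20, Ccna2 and Aurka among them, overlap another entry, so part of their reads may be uncertain for the same reason. Whole spans and not exons were compared, so the size of this part is not known.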

How the data were processed

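RNA of 6 libraries (DMSO, TGF-β and TGF-β+2APB, 2 replicates each) was measured as 50 bp single-end reads. According to the methods the authors checked reads with FastQC 0.11.2, aligned them with TopHat 2.0.13 and counted them with featureCounts of Rsubread 1.16.1. The deposited values are raw counts per gene symbol. The submitters' processing notes name the mouse build mm10, where the methods name a human build, and the symbols are mouse symbols. The annotation and strand setting are not given in the sources used here. Of the 18512 entries, 25 names had become dates and none of these was a member.

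CPM are counts divided by the library total and multiplied by 1000000. Counts were fitted with edgeR 4.0.16 (R 4.3.3, TMM scaling, a mean normalized count of 20 or more, 3 groups, quasi-likelihood F-test) and called at a Benjamini-Hochberg FDR of 0.05 or less. The biological coefficient of variation was 17.4% and standard errors (SE) were obtained as log2 fold change over √F. The procedure was tested on simulated data. Python 3.11.15 was used for tables and plots. Promoters and positions came from RefSeq, GRCm38.p6, which matched 206 members, and lengths from GENCODE transcripts of the reference.

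The members and lists were chosen with earlier results of these data known. Named genes are the 15 most lowered and 10 most abundant members, up to 4 per list and 3 per symbol family, those next to the threshold and neighbouring members. Others were named after their values were seen. A few genes and gene lists are not reported here. With 2 replicates per group, p-values cover only the spread between these samples. Alternatives were RLE or library size scaling, DESeq2 1.42.0, no filter on the mean, an FDR of 0.01, fits of 4 libraries, a replicate block, each library left out, other limits in the rule, and, after seeing the data, an exchanged block, halved counts and the counts of the mitosis list under every setting.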

Additional observations from a re-analysis of the deposited data

How the results depend on the processing

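The number of members was 208, and 184 or 176 with CPM from TMM or RLE library sizes (179 and 172 of them among the 208). It was 436 at a fold of 1.3, 63 at a fold of 2, 127 at a ratio bound of 1.2 and 352 at a bound of 2, and between 217 and 334 without 1 library, the highest without replicate 2 of TGF-β+2APB and 314 without replicate 1 of TGF-β. The mitosis list had 29 members, 17 at a fold of 2 and 26 to 33 without 1 library. Members called lower with TGF-β+2APB than with TGF-β numbered 193, 107 at an FDR of 0.01 and 135 to 194 without 1 library. Against DMSO they numbered 207 and 174 to 206 without 1 library. The 21 calls of TGF-β against DMSO became 12 with no filter on the mean count, 7 in the fit of only the 4 libraries compared, 0 at an FDR of 0.01 and 0 to 42 without 1 library (0 and 1 without DMSO replicates 1 and 2, 35 and 42 without TGF-β replicates 1 and 2, 6 without either replicate of TGF-β+2APB). The median log2 fold change of members was -1.24 against DMSO with library size scaling only, -1.20 to -1.11 against DMSO and -1.17 to -1.11 against TGF-β without 1 library, and -0.07 to -0.03 for TGF-β against DMSO. The mitosis list had 32 to 45 entries called lower than with TGF-β without 1 library, 37 in all. No value of the 85 named members changed sign under the 14 other fits, which the rule largely fixed by placing both libraries with 2APB below the 4 others. Of these 1190 values, 6 moved by more than the spread between replicates. Leaving out a library takes a value out of the fold condition, which as many or more entries can then meet. The cause of the other shifts was not tested. Every library left 1 replicate in its group when left out, and that replicate was taken to vary like the other groups.

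The labels give the replicates a number and no pairing. The deviations of same-numbered samples correlated at 0.16 for the pair DMSO and TGF-β. Those of TGF-β+2APB correlated at -0.48 with DMSO and at -0.25 with TGF-β alone. Each value rests on a single difference per group, so it cannot show whether the replicates were paired. With the replicate number as a block, 164 members were called lower than with TGF-β, all of them among the 193, 201 lower than with DMSO, and 7 between TGF-β and DMSO, and 35 mitosis entries were called lower. With the TGF-β+2APB replicates exchanged in the block the counts were 188, 207, 26 and 39. Depth limits the members near 1 CPM, where 1 CPM stood for 71.8 to 79.5 counts.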
